A study of Mus musculus with 8 samples.

Results

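Collagen chains are the polypeptides that wind in threes into the collagen triple helix, and 42 of the 18193 genes with a single symbol on the array encode one. They were taken as every gene whose symbol reads Col, a number, a and a number, with 1 probe set per gene, the one brightest on average over the 8 arrays. By class they are 11 fibrillar chains, 6 basement membrane chains (collagen IV), 9 fibril-associated chains and 16 others. The arrays came from 4 mouse epithelial lines, EpH4 and NMuMG from mammary gland mProx from the kidney's proximal tubule and MCT from kidney tubule. Stimulated cells received recombinant TGF-b1 and EGF, each at 3 ng/mL, for 24 h in K-1 medium with transferrin and insulin. Before that, all cells spent 24 h in this medium without the factors. Resting cells had the same medium without the factors, and the submitters' design text calls the groups EMT-induced and non-induced, EMT being the epithelial-mesenchymal transition. Each line has 1 array per group, so a group holds 4 arrays, and the labels give EpH4 as resistant to EMT. The labels do not say how many cultures stand behind an array. The p-values rest on the spread from line to line, from which array and culture noise cannot be separated, with a variance moderated over all tested genes. In such bulk samples fewer cells of a kind and less RNA per cell cannot be told apart.

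Fibrillar collagens form the tension-bearing fibrils of connective tissue, with type I as the main one and type V as a minor partner that sets fibril diameter. Collagen IV makes the sheet-like network of basement membranes, on which epithelial cells rest, and fibril-associated collagens decorate fibrils without forming them. TGF-β is a classical inducer of fibrillar collagen genes in fibroblasts and kidney fibrosis.

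A level below is the log2 of the deposited intensity plus an offset of 10.6, quantile-normalized across arrays, and a change is the stimulated minus the resting level of a line. The filter for testing was a mean level of 5.27, which is where the 40th percentile over probe sets lies, and it took in 29 of the 42 chains and 12697 genes in all. The median deposited intensity per array lay between 41.5 and 59.7. Of 10 epithelial markers 9 reached the filter level in EpH4, 7 in MCT, 6 in NMuMG, and 6 in stimulated and 5 in resting mProx. Cdh1, encoding E-cadherin, was below it on the 4 arrays of mProx and MCT, and Vim, the mesenchymal intermediate filament gene, read 4.19 and 4.02 in stimulated and resting EpH4 and 13.20 or more elsewhere. Other mesenchymal markers were mixed. S100a4 was also lowest in EpH4, at 8.18 stimulated and 7.89 resting, against 9.38 or more elsewhere. Postn went the other way, at 12.23 and 11.77 in stimulated and resting EpH4 and 7.07 or less elsewhere. Of 8 proximal tubule markers on the array only Aqp1 stood out in mProx, at 11.23 stimulated and 12.84 resting. Of 3 milk protein genes Csn2 and Wap read 5.96 or less on every array, whereas Csn3 read 10.63 and 9.43 in stimulated and resting MCT and 8.89 and 5.23 in stimulated and resting mProx, and 5.46 or less in the mammary lines. Other mammary luminal markers differed from Csn3. Gata3 read 8.04 and 8.37 in stimulated and resting EpH4 and 5.54 or less elsewhere. Krt8 read 11.96 or more in the mammary lines and 10.67 or less in the kidney lines. Krt18 read 12.41 or more in the mammary lines and 9.01 to 12.58 in the kidney lines, and Elf5 4.83 or less on every array. The 9 endothelial and leukocyte markers, chosen as genes of other cell types, read between 3.60 and 7.25, so a level above the filter is not a detection call. The 7.25 was Cd68 in resting EpH4, and the other markers reached at most 6.77. Whether these lines express Cd68 was not tested, so the yardstick of 7.25 rests on Cd68 alone. By that yardstick, set after the data were seen, 17 of the 42 chains exceeded 7.25 on at least 1 array. The share of all genes that did so was not counted, so 17 is not read as many or few. Since probe sets differ in brightness, these are rough guides, and no level is read as the amount of one chain relative to another.

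The 13 chains that were not tested had mean levels up to 5.22, just under the filter, while the lowest tested chain had 5.28. Col24a1, Col9a2, Col9a3, Col10a1, Col13a1, Col17a1, Col26a1 and Col6a5 reached the filter level on no array. Col2a1, the cartilage fibril chain, reached it on 1 array, and Col19a1, Col23a1, Col25a1 and Col6a4 on 3 each, with 6.27 as the highest value among the 13.

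Among the collagen chains the largest increases after stimulation were in 3 fibrillar chains, Col1a1, Col5a3 and Col27a1, none of which passed the test. Of the 29 tested chains, 15 had a positive and 14 a negative mean change over the 4 lines, with a median of 0.01, the same as the median of 0.01 over all tested genes. In limma's test of the response in 4 lines 0 of the 29 chains passed an adjusted p of 0.05, as did 0% of all genes. At an unadjusted p under 0.05 there were 7 chains, 4 higher and 3 lower, against 11.5% of all genes. In the 3 lines not labelled resistant 0 chains passed, against 0.102% of all genes, with 5 higher and 3 lower at an unadjusted p under 0.05, against 12.6% of all genes. The values as deposited, without quantile normalization, gave another picture. There Col1a1, Col5a3 and Col27a1 passed limma's test in the 4 lines, with adjusted p of 0.000928, 0.00367 and 0.0286, where 1.87% of all genes passed. Their mean changes there were 1.32 (SE 0.29), 1.04 (SE 0.25) and 0.94 (SE 0.27). After quantile normalization they were no smaller, at 1.42 (SE 0.25), 1.11 (SE 0.42) and 1.02 (SE 0.26), with the same directions. The SE is moderated over all genes, while Col5a3 as deposited ran from -0.49 in EpH4 to 3.07 in NMuMG. These passes thus depend on the normalization, and why was not tested. Trimmed means of the deposited arrays ran from 209 to 377.

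**Figure D1:**
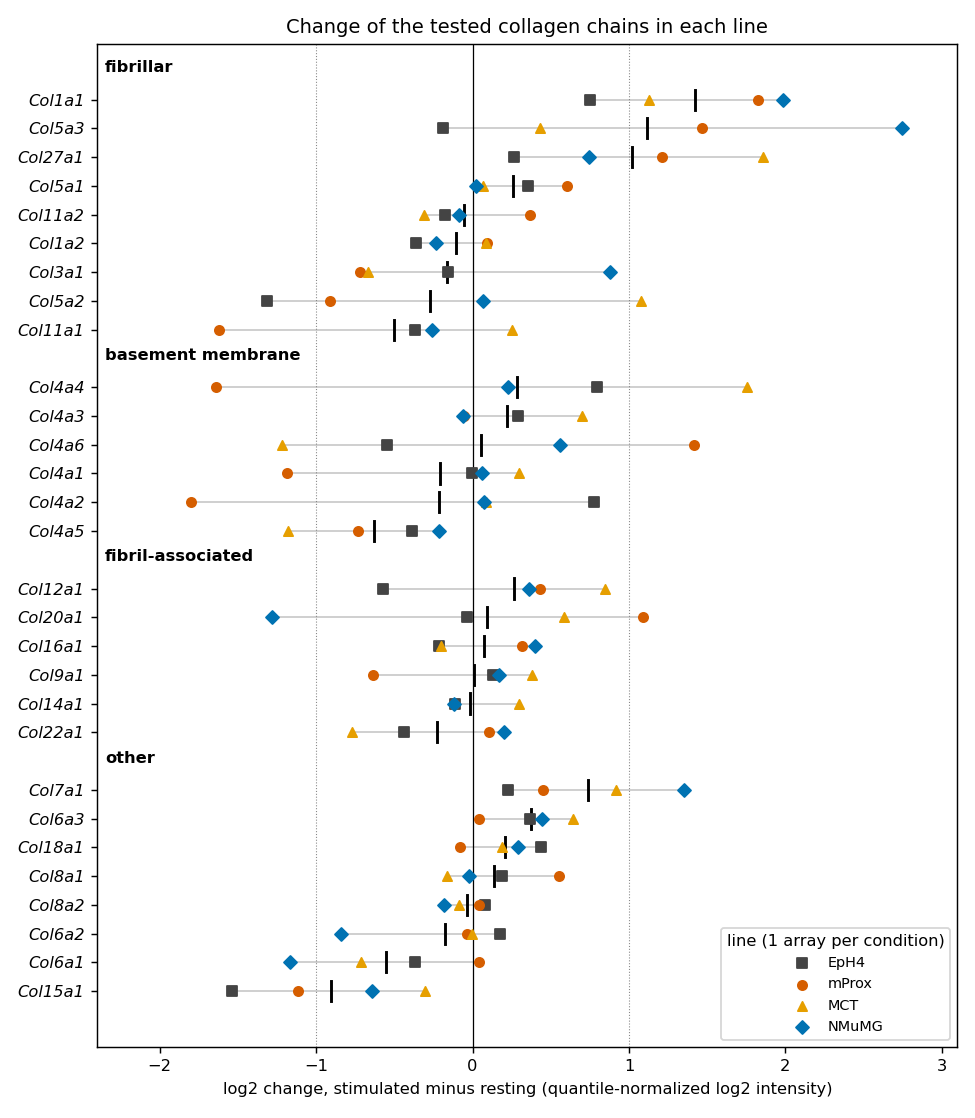
Log2 change (stimulated minus resting) of the 29 tested collagen chains on the horizontal axis, 1 symbol per line and a black bar for the mean over the 4 lines, by class and in order of the mean. Col1a1, Col27a1 and Col7a1 lie right of 0 in all 4 lines, whereas Col4a2 and Col4a4 span both sides; dotted lines mark 2-fold.

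Col1a1 encodes the chain of which the type I triple helix holds a pair. Its level was 7.53, 6.5, 5.26 and 7.72 in stimulated EpH4, mProx, MCT and NMuMG, against 6.78, 4.68, 4.13 and 5.74 in the resting cells. The stimulated array was above the resting one in each line, and the groups overlapped. Its mean change was 1.42 ± 0.58 (SD, n = 4), with an SE of 0.25 and a limma adjusted p of 0.126, and 1.65 ± 0.45 (SD, n = 3) without EpH4 (adjusted p = 0.0964). Before normalization, the deposited intensities were 181, 84.7, 23.7 and 175 in stimulated EpH4, mProx, MCT and NMuMG, against 123, 17.5, 6.4 and 36.3 in the resting lines. Both arrays of MCT and the resting array of mProx were under the filter level, so those sizes are not exact. The second Col1a1 probe set was also higher in all 4 lines, with a smaller mean change of 0.57. Of 10 mesenchymal and fibroblast markers 5, 7, 5 and 8 reached the filter level in stimulated EpH4, mProx, MCT and NMuMG, against 5, 7, 3 and 6 at rest, with summed intensities of 5506 to 20075 in stimulated and 4899 to 16547 in resting cells. Thy1, a fibroblast surface marker, was above the filter on the stimulated NMuMG array alone, and the part of these markers in the Col1a1 difference was not tested. In the 3 lines Col1a1 passed with arrays shifted to a common median (adjusted p = 0.0450, 0.669% of all genes called) and on the values as deposited (0.00184, 1.7% called).

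Col1a2, the partner chain of type I collagen, did not show the increase seen for Col1a1. It read 6.20, 6.52, 6.66 and 6.80 in stimulated EpH4, mProx, MCT and NMuMG, against 6.56, 6.42, 6.57 and 7.04 at rest, and the groups overlapped. Its mean change was -0.10 ± 0.23 (SD, n = 4; limma adjusted p = 0.857). The other probe sets of Col1a2 were dimmer, with mean levels of 4.19 and 3.69 and mean changes of 0.23 and 0.36, so the chain's direction depends on the probe set.

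Col5a3, a chain of type V collagen, had the single largest change of a tested chain in any line. Its level was 6.45, 8.01, 6.35 and 10.39 in stimulated EpH4, mProx, MCT and NMuMG, against 6.64, 6.55, 5.92 and 7.64 at rest. Its change was greatest in NMuMG at 2.75, then 1.47 in mProx and 0.43 in MCT, and -0.19 in EpH4, so the 3 lines not labelled resistant were higher and EpH4 was not. The mean over 4 lines was 1.11 ± 1.29 (SD, n = 4; limma adjusted p = 0.376), and it was 0.57 without NMuMG, the line that carries most of it. The other Col5a3 probe set had a mean level of only 3.91 and a mean change of -0.04.

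Col27a1, a fibrillar chain known from cartilage, read 7.13, 6.07, 7.14 and 8.49 in stimulated EpH4, mProx, MCT and NMuMG, against 6.87, 4.86, 5.29 and 7.75 at rest. It was higher after stimulation in each line, by 0.26, 1.21, 1.86 and 0.74, although on the values as deposited EpH4 was at -0.01. The mean change was 1.02 ± 0.68 (SD, n = 4; limma adjusted p = 0.237). Its other probe set was higher in 3 lines and lower in mProx.

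At least 2-fold increases in at least 2 lines, with the brighter array at the filter level, were seen for Col1a1, Col5a3 and Col27a1, 3 of the 29 chains, against 1.35% of all tested genes. All 3 are fibrillar chains, and each met the rule only on the probe set used. The other probe set gave at most 0.93 in a line for Col1a1 and 0.35 for Col5a3. For Col27a1 it was 2-fold higher in EpH4 alone, at 1.34. At least 2-fold decreases in at least 2 lines were seen for 1 chain, Col15a1, against 1.06% of all tested genes. No chain met either rule in 3 lines, against 0.276% of all tested genes higher and 0.228% lower. Col1a1 in MCT was 2-fold higher too, but with its brighter array just under the filter.

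**Figure D2:**
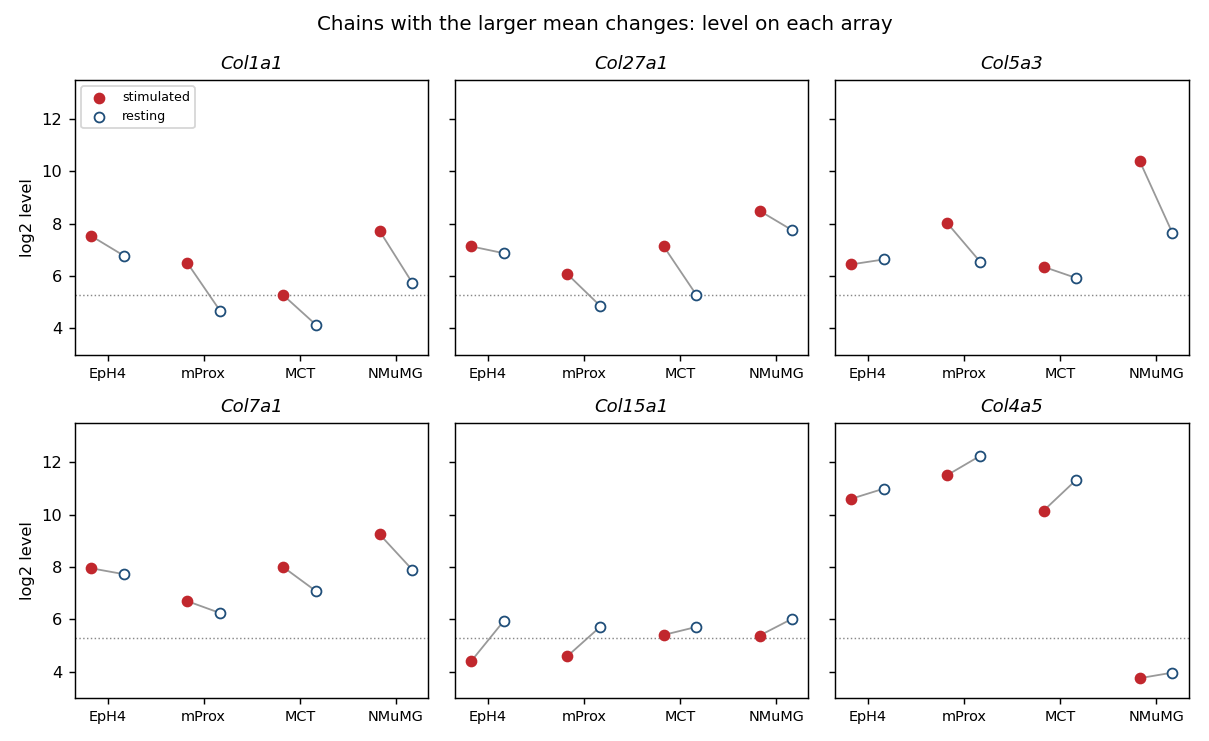
Log2 level on each array of 6 collagen chains, stimulated (filled) left of resting (open) within each line, with a dotted line at the filter level of 5.27. Stimulated Col1a1 lies above resting in every line, and Col4a5 and Col15a1 lie below it in every line.

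None of the other fibrillar chains was at least 2-fold higher in 2 lines. Col5a1, the core chain of type V collagen, read 6.16, 9.37, 9.06 and 9.92 in stimulated EpH4, mProx, MCT and NMuMG, against 5.80, 8.77, 8.99 and 9.90 at rest. The change was 0.02 to 0.60, with a mean of 0.26 ± 0.27 (SD, n = 4; limma adjusted p = 0.521), although MCT was at -0.20 before quantile normalization. The mean was 0.15 without mProx, and both other Col5a1 probe sets were lower in mProx. Col5a2, the other type V chain, was high in MCT alone, at 11.30 stimulated and 10.22 resting, against 3.98 to 5.64 on the other 6 arrays. In MCT its change was 1.08, and in EpH4 it was -1.32 between dim arrays. Col3a1, which forms fibrils with type I in soft tissue, had a change of -0.72 in mProx, -0.67 in MCT, -0.16 in EpH4 and 0.88 in NMuMG. Its second, dim probe set was higher in all 4 lines, with a mean change of 0.42, so the direction for Col3a1 depends on the probe set. Col11a1, which nucleates cartilage fibrils, read 4.82, 5.15, 5.24 and 5.42 in stimulated EpH4, mProx, MCT and NMuMG, against 5.19, 6.77, 4.99 and 5.67 at rest. Its mean change was -0.50 ± 0.79 (SD, n = 4), and -0.13 without mProx, the line that carries the difference. Col11a2 had a mean change of -0.05 and stayed between 3.94 and 6.72.

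The proximal promoter of Col5a3, the fibrillar chain with the largest change, is shown beside that of Col7a1, the anchoring-fibril chain described below that was higher in all 4 lines. Both are 200 bases from 250 to 51 bases upstream of the start that the promoter annotation on GRCm38.p6 gives. They lie at chr9:20815118-20815317 on the minus strand for Col5a3 and chr9:108953336-108953535 on the plus strand for Col7a1. That start is not always the outer end of the RefSeq gene, which for Col5a3 is at 20815117, right beside the window. Neither window overlaps an annotated gene. Capitals mark matches to TGTCTG or its reverse complement CAGACA, the type of box that SMAD3 binds, and to GGGCGG or CCGCCC, the GC box of SP1. The AP-1 type motif TGANTCA was searched too.
Col5a3: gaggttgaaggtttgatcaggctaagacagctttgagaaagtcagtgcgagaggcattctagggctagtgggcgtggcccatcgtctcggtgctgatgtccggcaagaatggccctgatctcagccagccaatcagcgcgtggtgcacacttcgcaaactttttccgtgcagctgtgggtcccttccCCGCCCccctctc
Col7a1: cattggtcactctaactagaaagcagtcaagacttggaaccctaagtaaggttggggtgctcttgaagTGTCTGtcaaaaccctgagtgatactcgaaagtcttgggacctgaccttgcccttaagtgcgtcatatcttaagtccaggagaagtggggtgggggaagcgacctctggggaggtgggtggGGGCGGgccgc
The Col7a1 window holds 1 TGTCTG, starting 182 bases upstream, and each window holds 1 GC box. TGTCTG on either strand occurs in 14.3%, the GC box in 24.6% and TGANTCA in 5.57% of the 32851 windows of this length in the table. These matches are a description of letters and not of binding.

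Several of the 6 collagen IV chains were high in some lines and near the filter in others. They are encoded by 3 head-to-head gene pairs, Col4a1 with Col4a2 on chromosome 8, Col4a3 with Col4a4 on chromosome 1 and Col4a5 with Col4a6 on the X chromosome. In the annotation of GRCm38.p6 the first pair overlaps by 85 bases and the second by 114 bases, and 1274 bases lie between the third pair. Over the class 3 chains had a positive and 3 a negative mean change, and 0 passed limma's test.

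Col4a1 and Col4a2 make the trimer found in nearly all basement membranes. Col4a1 read 5.63, 10.34, 5.63 and 11.86 in stimulated EpH4, mProx, MCT and NMuMG, against 5.63, 11.53, 5.34 and 11.79 at rest. Col4a2 read 5.74, 9.0, 5.57 and 10.26 in stimulated EpH4, mProx, MCT and NMuMG, against 4.96, 10.80, 5.48 and 10.19 at rest. Both genes were high in mProx and NMuMG and near the filter in EpH4 and MCT. In mProx both were lower after stimulation, with changes of -1.19 and -1.80 from 1 array per condition. NMuMG gave changes of 0.06 and 0.07 for the pair. The second Col4a1 probe set was lower in mProx too, with a change of -1.73, but gave 1.42 in MCT and 0.50 in EpH4, and its mean change of 0.13 has the opposite sign to the -0.21 of the probe set used. On the same mProx arrays Dcn, the fibroblast proteoglycan gene decorin, read 7.53 stimulated and 10.56 resting, and Lum, encoding lumican, 4.73 and 7.39. Pdgfra and Pdgfrb were slightly lower too. Other markers of that list went the other way, with S100a4 at 12.71 stimulated and 11.95 resting, Postn at 7.07 and 6.46 and Thy1 at 5.13 and 3.99. Prrx1, Vim and Fap were also higher after stimulation. Of 10 mesenchymal and fibroblast markers 7 reached the filter on each mProx array, with summed deposited intensities of 17144 stimulated and 14915 resting. The part of such markers in the collagen IV difference was not tested.

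Col4a5 was the collagen IV chain that was lower after stimulation in all 4 lines. It read 10.60, 11.51, 10.15 and 3.75 in stimulated EpH4, mProx, MCT and NMuMG, against 10.99, 12.24, 11.33 and 3.96 at rest. It was high in EpH4, mProx and MCT and at the bottom of the scale in NMuMG, so the NMuMG difference is one between dim values. The mean change was -0.63 ± 0.43 (SD, n = 4; limma adjusted p = 0.248), and MCT had the most negative value, -1.18. The second Col4a5 probe set gave -1.14 in MCT, -0.70 in mProx and -0.27 in EpH4, but 0.36 in NMuMG. Its neighbour Col4a6, with which it forms a trimer in some basement membranes, read 6.39, 6.51, 8.17 and 6.33 in stimulated EpH4, mProx, MCT and NMuMG, against 6.94, 5.09, 9.39 and 5.77 at rest. Col4a6 was highest in MCT, where its change was -1.22, close to the -1.18 of Col4a5 in that line. In mProx the pair went opposite ways, at 1.42 for Col4a6 and -0.73 for Col4a5. Resting mProx was under the filter for Col4a6, so that size is not exact, and the second Col4a6 probe set gave 0.24 there.

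The windows from 250 to 51 bases upstream of the starts that the promoter annotation gives for Col4a5 and Col4a6 are shown next. The pair shares 1 intergenic stretch, while their changes went opposite ways in mProx. The RefSeq genes begin nearer to these windows, at 141475370 for Col4a5 and 141474095 for Col4a6. The windows lie at chrX:141475169-141475368 on the plus strand and chrX:141474127-141474326 on the minus strand, and overlap no annotated gene.
Col4a5: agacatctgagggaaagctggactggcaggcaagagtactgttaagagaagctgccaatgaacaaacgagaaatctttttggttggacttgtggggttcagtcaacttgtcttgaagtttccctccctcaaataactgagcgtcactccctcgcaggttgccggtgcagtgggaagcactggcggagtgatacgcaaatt
Col4a6: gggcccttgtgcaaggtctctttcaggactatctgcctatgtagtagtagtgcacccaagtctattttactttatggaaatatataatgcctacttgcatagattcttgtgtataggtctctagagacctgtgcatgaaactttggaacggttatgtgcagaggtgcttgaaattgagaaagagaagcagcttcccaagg
Neither window holds any of the 3 motifs on either strand, so no letters are in capitals, and their GC contents are 49.5% and 42.5%.

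Col4a3 and Col4a4 belong, with Col4a5, to the trimer of the glomerular basement membrane. Col4a4 read 4.84, 6.39, 5.69 and 5.38 in stimulated EpH4, mProx, MCT and NMuMG, against 4.05, 8.03, 3.94 and 5.15 at rest. The change was -1.64 in mProx and 1.75 in MCT, so the 2 kidney lines went opposite ways. Resting MCT was far under the filter, so its size is not exact, and it was 2.87 with an offset of 1 and 0.99 with an offset of 32. The mean of 0.29 ± 1.43 (SD, n = 4) became -0.20 without MCT. All 3 Col4a4 probe sets were lower in stimulated mProx and higher in stimulated MCT. Col4a3 stayed between 5.77 and 6.71 on all 8 arrays, in the range of the endothelial and leukocyte markers. Its changes were 0.29, -0.05, 0.70 and -0.06 in EpH4, mProx, MCT and NMuMG. The second Col4a3 probe set gave 0.51, -0.02, 1.17 and 0.13.

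**Figure D3:**
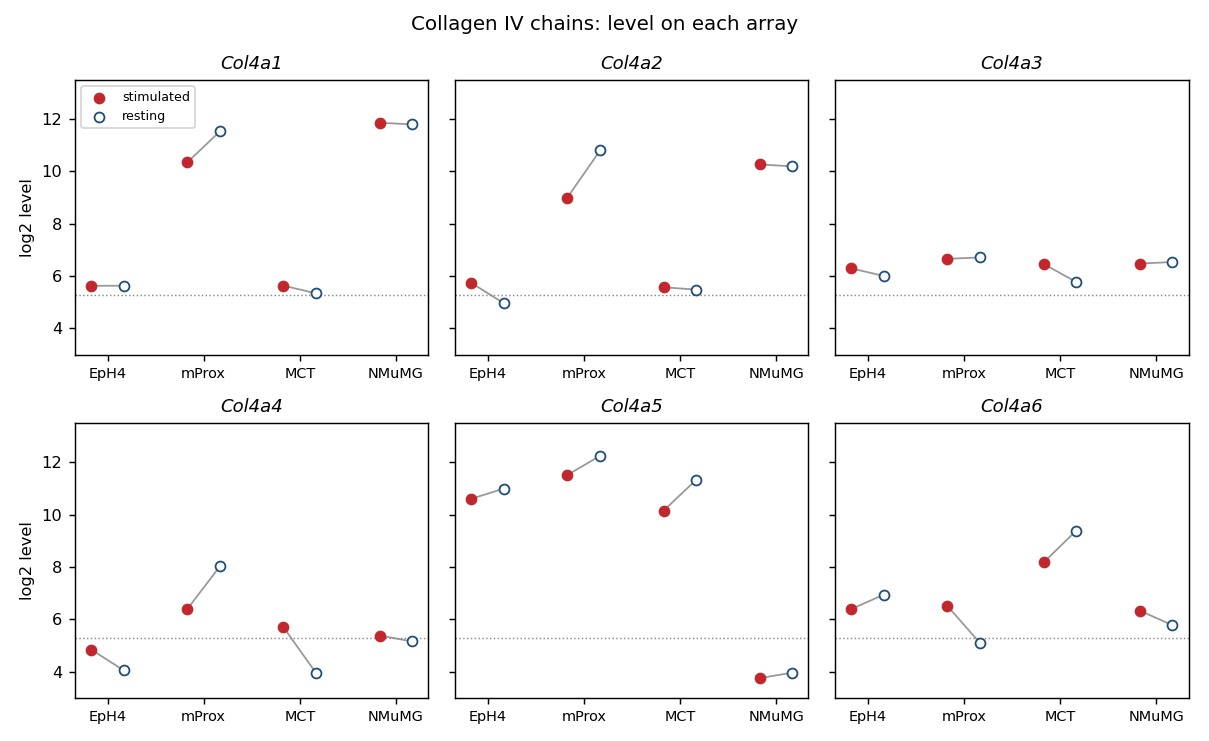
Log2 level of the 6 collagen IV chains on each array, stimulated (filled) left of resting (open) within each line, with the filter level of 5.27 dotted. Col4a1 and Col4a2 are high in mProx and NMuMG, while Col4a5 is high in EpH4, mProx and MCT and at the bottom of the scale in NMuMG.

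Of the fibril-associated chains, 0 of the 6 tested passed limma's test, with 4 positive and 2 negative mean changes. Col12a1, which links fibrils to other matrix, read 6.60, 6.08, 7.05 and 10.23 in stimulated EpH4, mProx, MCT and NMuMG, against 7.17, 5.65, 6.21 and 9.87 at rest. It was higher in the 3 lines not labelled resistant, by 0.36 to 0.85, and its change was -0.57 in EpH4. That split holds for the probe set used alone, since the next Col12a1 probe set, with a mean level of 6.75, gave -0.22 in MCT and -0.06 in EpH4. Over the 3 lines its mean change was 0.55 ± 0.27 (SD, n = 3; limma adjusted p = 0.314), while over the 4 lines it was 0.27, and 0.072 without MCT. Col16a1 read 5.79, 8.58, 8.48 and 7.57 in stimulated EpH4, mProx, MCT and NMuMG, against 6.0, 8.26, 8.68 and 7.17 at rest, a mean change of 0.07 ± 0.33 (SD, n = 4). That sign turned without mProx, without NMuMG and on the values as deposited. Col22a1, a chain of tissue junctions such as muscle to tendon, read 5.32, 5.83, 4.90 and 5.34 in stimulated EpH4, mProx, MCT and NMuMG, against 5.76, 5.72, 5.67 and 5.14 at rest. Its mean change was -0.22 ± 0.46 (SD, n = 4) among dim values, and -0.042 without MCT. Col20a1 had changes of 1.09 and 0.59 in the kidney lines mProx and MCT, against -1.28 in NMuMG and -0.03 in EpH4, but its other 3 probe sets did not share these directions in all 4 lines. Col14a1 and Col9a1 had mean changes of -0.01 and 0.01, between levels of 5.27 and 6.86.

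Among the other chains, Col7a1, the chain of the anchoring fibrils that fasten skin epithelium to dermis, was higher after stimulation in all 4 lines. It read 7.95, 6.69, 7.99 and 9.24 in stimulated EpH4, mProx, MCT and NMuMG, against 7.72, 6.24, 7.07 and 7.89 at rest. The changes were 0.23, 0.45, 0.92 and 1.35, with a mean of 0.74 ± 0.50 (SD, n = 4; limma adjusted p = 0.265). On the values as deposited EpH4 was at -0.06. Col15a1, a multiplexin of the basement membrane zone, was lower in all 4 lines, at 4.40, 4.59, 5.40 and 5.38 in stimulated EpH4, mProx, MCT and NMuMG, against 5.94, 5.71, 5.71 and 6.02 at rest. Every stimulated level was below every resting level, which held for 0.252% of all tested genes, and its mean change was -0.90 ± 0.54 (SD, n = 4; limma adjusted p = 0.296). All 8 values lie in the dim range, so the size is not exact.

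Over the 29 tested chains, Col1a1, Col27a1, Col5a1, Col6a3 and Col7a1 were higher in all 4 lines, 5 of 29 against 10.4% of all tested genes, and Col4a5 and Col15a1 lower in all 4, 2 of 29 against 9.18%. On the values as deposited Col1a1 alone of the 5 kept a positive sign in each line, while both lower chains kept theirs. Col6a3, a chain of the beaded collagen VI filaments, had a mean change of 0.37, at levels of 5.28 to 6.47.

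Its partner Col6a1 read 6.0, 11.55, 6.49 and 9.23 in stimulated EpH4, mProx, MCT and NMuMG, against 6.37, 11.51, 7.20 and 10.40 at rest. In NMuMG its change was -1.17, and its mean change was -0.55 ± 0.51 (SD, n = 4; limma adjusted p = 0.343). Col6a2, the third filament chain, had a change of -0.84 in NMuMG and of no more than 0.17 in size in the other lines. Col18a1, the multiplexin from which endostatin is cut, read 6.53, 11.74, 11.19 and 11.62 in stimulated EpH4, mProx, MCT and NMuMG, against 6.09, 11.82, 11.004 and 11.34 at rest. Its mean change was 0.21 ± 0.22 (SD, n = 4), and 0.13 without EpH4, and its second probe set had the same direction in each line. Col8a1, a network-forming chain best known from vessel walls and the cornea, had changes of -0.16 to 0.56 and Col8a2 of -0.18 to 0.08.

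Counted line by line, mProx had the most chains that differed at least 2-fold with the brighter array at the filter level. In mProx 5 of 29 chains were higher, against 2.65% of all tested genes, and 5 lower, against 2.39%. MCT had 3 higher and 2 lower, against 2.68% and 2.59% of all tested genes, and NMuMG 3 higher and 2 lower, against 2.88% and 1.93%. EpH4 had 0 higher, against 1.25%, and 2 lower, against 0.906%. The size of such differences went with the level. Over all tested genes and the 4 lines, 9.76% of changes were at least 2-fold where the mean level was under 6.5, 4.69% at 6.5 to 8.5 and 1.68% above, and 14, 12 and 3 of the tested chains lie in these bands. These counts have no replicate check within a line.

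No difference in response between lines passed its test, which does not show that the lines respond alike. In limma's test of the EpH4 response minus that of the other 3 lines 0 of 29 chains passed, as did 0% of all genes, and the smallest adjusted p was 1.00. EpH4 is 1 line in that test and is given the spread of the others. At an unadjusted p under 0.05 there was 1 chain, Col12a1, with a difference of -1.12 and an SE of 0.38, against 3.43% of all genes. For the kidney response minus the mammary response 0 chains passed, as did 0% of all genes, with a smallest adjusted p of 0.796. There 3 chains had an unadjusted p under 0.05, against 5.94% of all genes. They were Col20a1 with a difference of 1.5, Col27a1 with 1.03 and Col4a5 with -0.66, the last resting in part on NMuMG, where the gene was at the bottom of the scale. The other Col27a1 probe set, with a mean level of 5.62, did not share that direction. It gave -0.36 in mProx and 0.45 in MCT, against 1.34 in EpH4 and 0.83 in NMuMG.

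Of the 29 chains, 14 were higher and 15 lower in resting EpH4 than in the mean of the other 3 lines. Col18a1 had the largest gap between EpH4 and the other 3, at a resting level of 6.09 in EpH4 against 11.82, 11.004 and 11.34 in mProx, MCT and NMuMG. That difference was -5.29 with an SE of 0.44 and a limma adjusted p of 0.116, which did not pass. Col5a1 was lower in EpH4 too, with a difference of -3.42 (SE 0.63, adjusted p = 0.295). Col4a1 and Col6a1 had differences of -3.92 and -3.34, but MCT lay close to EpH4 for both, and their adjusted p was 0.753 and 0.666. In this comparison 0 of 29 chains passed, against 0.00788% of all genes, and 4 had an unadjusted p under 0.05, against 8.83% of all genes. These were Col18a1, Col5a1 and Col16a1, lower in EpH4, and Col8a2, higher in EpH4 by 1.41 among dim values. With 1 array, EpH4 takes its spread there from the remaining lines.

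Between tissues, Col8a1 was lower in the kidney lines, at 5.67 in mProx and 7.16 in MCT at rest, against 9.21 in EpH4 and 10.05 in NMuMG. The difference was -3.21 with an SE of 0.69 (limma adjusted p = 0.413). Col27a1, Col11a2, Col12a1 and Col1a1 were also lower in resting kidney lines, with differences of -2.23, -2.15, -2.59 and -1.86 and adjusted p from 0.440 to 0.668. The sizes for Col27a1, Col11a2 and Col1a1 are not exact, since Col11a2 and Col1a1 were under the filter level in both resting kidney lines and Col27a1 in resting mProx. Col16a1 was higher in the kidney lines, with a mean of 8.47 against 6.59 in the mammary lines (adjusted p = 0.570). In this test 0 of 29 chains passed, as did 0% of all genes, and 7 had an unadjusted p under 0.05, 1 higher and 6 lower, against 7.38% of all genes. Over resting and stimulated arrays together, all 4 kidney arrays were above all 4 mammary arrays for Col16a1 alone, against 11% of all genes. All 4 were below for Col8a1 and Col11a2, against 7.24% of all genes.

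**Figure D4:**
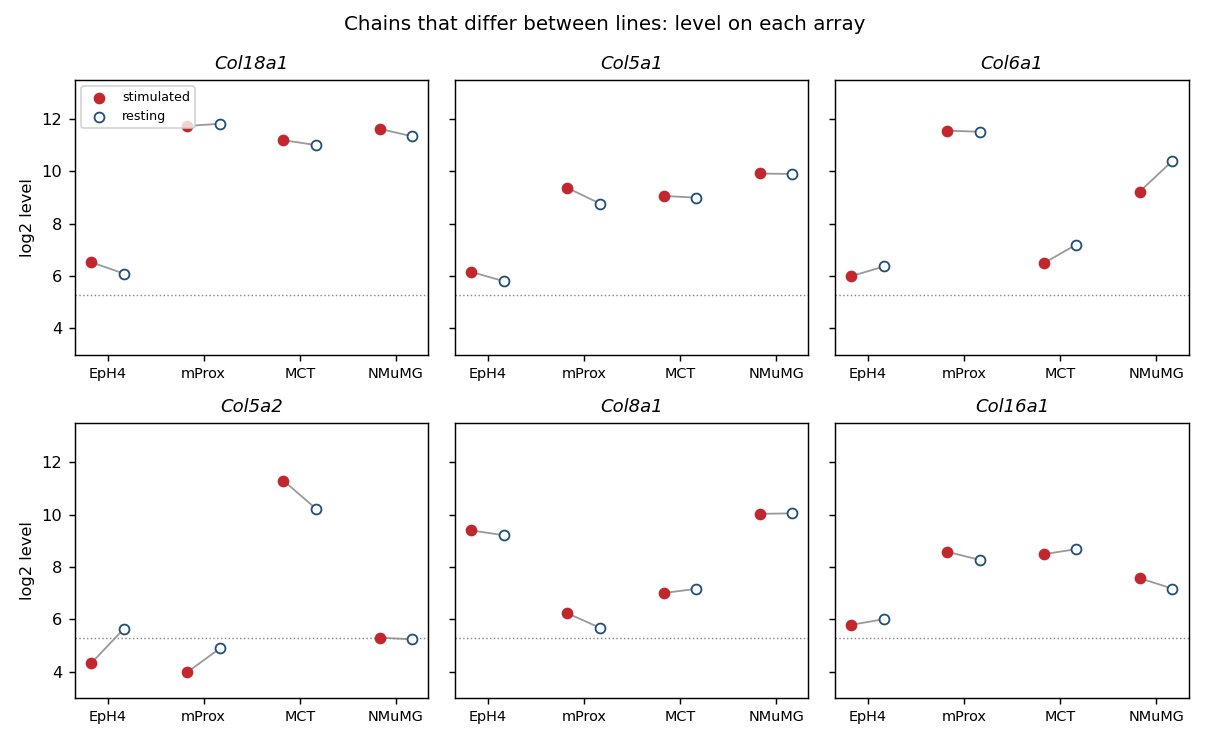
Log2 level of 6 collagen chains on each array, stimulated (filled) left of resting (open) within each line, with the filter level of 5.27 dotted. Col18a1 and Col5a1 are low in EpH4 alone, Col5a2 is high in MCT alone, and Col8a1 is lower in mProx and MCT than in EpH4 and NMuMG.

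Collagen maturation covers the enzymes and chaperones that hydroxylate, fold, trim and cross-link the chains. Of 33 listed maturation genes 29 were on the array and 23 tested, of which 15 had a positive and 8 a negative mean change, with a median of 0.05 against 0.01 over all tested genes. In the 4 lines and in the 3 lines 0 of the 23 passed limma's test, against 0% and 0.102% of all genes. In the 4 lines 5 were higher and 2 lower at an unadjusted p under 0.05, against 11.5% of all genes. Bmp1, the protease that removes the C-terminal propeptides of fibrillar chains, was higher in each line, by 0.59, 0.53, 1.31 and 1.14 in EpH4, mProx, MCT and NMuMG (mean 0.89 ± 0.39, SD, n = 4; adjusted p = 0.122). Pcolce2, which enhances that cleavage, was higher by 1.59, 0.80 and 1.36 in mProx, MCT and NMuMG and at -0.13 in EpH4. Its relative Pcolce was at -0.33, -1.17 and -0.42 in those 3 lines and at -0.03 in EpH4. Plod2, the lysyl hydroxylase of the telopeptides that sets the kind of cross-link, had a mean change of 0.97 in the 3 lines (adjusted p = 0.0552), and 0.23 in EpH4. P3h2, a prolyl 3-hydroxylase that acts on collagen IV, had a mean change of -1.24 in the 3 lines (adjusted p = 0.0552) and -0.23 in EpH4. P3h4, a non-enzymatic relative, had a mean change of 0.49 over 4 lines. Serpinh1, the collagen chaperone HSP47, had a mean change of 0.04.

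Of 10 collagen receptor and uptake genes 9 were on the array and 7 tested, of which 5 had a positive and 2 a negative mean change, with a median of 0.20. In the 4 lines 0 passed limma's test, as did 0% of all genes, and 4 were higher and 1 lower at an unadjusted p under 0.05, against 11.5% of all genes. Itga2, the integrin subunit that binds fibrillar collagen, was higher in each line, with a mean change of 0.94 ± 0.48 (SD, n = 4; adjusted p = 0.217). Itga1, the subunit that prefers collagen IV, was at -1.80, -1.45 and -1.45 in mProx, MCT and NMuMG and at 0.11 in EpH4, with a mean of -1.57 over the 3 lines (adjusted p = 0.0719). In MCT and NMuMG stimulated Itga1 was below the filter, so these sizes are not exact. Itgb1, the shared beta subunit, and Cd44 had mean changes of 0.37 and 0.52, Sdc1 of 0.20, and Ddr2, a receptor kinase for fibrillar collagen, of -0.30.

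**Figure D5:**
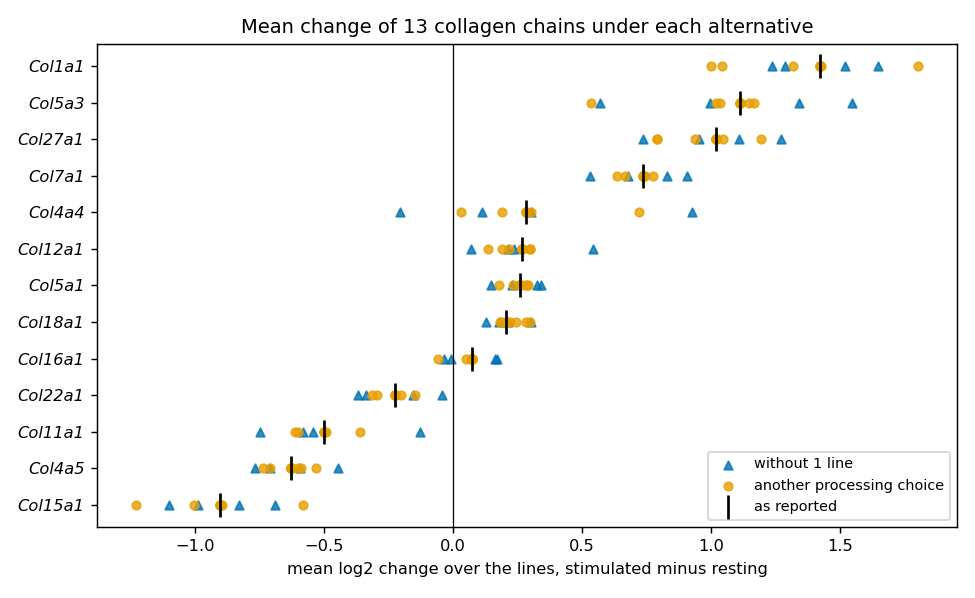
Mean log2 change over the lines (stimulated minus resting) of the 13 chains given with all their values, as reported (black bar), under other processing choices (circles) and without 1 line (triangles). Col1a1, Col5a3, Col27a1 and Col7a1 stay right of 0 and Col4a5 and Col15a1 left of it, whereas Col4a4 and Col16a1 fall on both sides.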

How the data were processed

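The authors deposited 1 linear intensity per probe set and array, made with MAS5 per the submitters' processing notes. No source used here gives its version or its scaling target. Of 45101 probe sets 64 are controls and stayed out of the analysis. Before log2, 10.6 was added to each value (the 25th percentile of positive signals), and the log2 values were quantile-normalized because array medians differed by 0.43, over the limit of 0.3. This removes any overall shift between groups. Symbols came from the platform annotation (34945 probe sets with 1 symbol, 932 with several, 9160 with none), checked by Entrez identifier against GRCm38.p6, where 34741 matched and 0 changed. Gene coordinates are RefSeq's on that build. The promoter annotation on the same build holds 33 of the chains, and its starts can differ from the ends of the RefSeq genes.

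The tests used limma 3.58.1 under R 4.3.3 (lmFit, eBayes with trend, Benjamini-Hochberg over all tested genes), with the cell line as a block. Lines pair the arrays by name, and the deviations of a line's 2 arrays from their group means correlated across genes at 0.905, 0.827, 0.812 and 0.874. In data simulated for the 4-line response (12697 genes) 89% of changes of 1.5 and 98% of changes of 3 on the log2 scale were recovered, with 100 genes of each size. Those genes were picked at random, with the same change in each line and independent normal noise of the gene's own residual SD. The shares hold for that setting and were not measured for the collagen chains.

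The members and lists were chosen with earlier results of these data known. Every tested chain is named. All 8 values are given for the brightest chain and the largest mean increase and decrease of each class and for chains changed 2-fold in 2 lines. Col1a2, Col4a1, Col4a2, Col4a6, Col5a2 and Col6a1 were added after their values were seen, as was Serpinh1. Up to 6 genes of each pathway list are named by size of change. The number of arrays limits the precision.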

Additional observations from a re-analysis of the deposited data

Results flagged for a closer look

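In 87 groups of 4 values (stimulated levels, resting levels and changes of the 29 tested chains) 7 held a value far from the other 3. The cutoff flags about 1 in 20 groups of independent normal values, but the groups of a chain are not independent. The share over all tested genes was not counted, so the 7 are not read as an excess in collagen chains. Col18a1 stood low in EpH4, at 6.53 stimulated and 6.09 resting. Col5a2 stood high in resting MCT at 10.22, Col4a6 high in stimulated MCT at 8.17, and Col4a5 low in resting NMuMG at 3.96. Col22a1 in resting NMuMG, at 5.14, and the Col14a1 change in MCT, at 0.30, lie among dim values.

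Opposite directions in the kidney and the mammary lines were found for 2 chains, Col20a1 with a kidney minus mammary difference of 1.5 and Col1a2 with 0.39, against 11% of all tested genes. On the values as deposited Col1a2 was at -0.06 in mProx and -0.17 in MCT, and its opposite directions were gone. In limma's test of that difference their adjusted p was 0.796 and 0.946.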

How the results depend on the processing

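The normalization mattered most. On the values as deposited 238 genes passed in the 4 lines and 216 in the 3 lines, against 0 and 13 as reported, and 3 collagen chains passed in each. There 35.5% of tested genes had a positive mean change, against 51.5% as reported, and 12 of 29 chains against 15. The other comparisons then gave 5 genes for the EpH4 difference, 21 for the kidney difference, 6 for resting kidney against mammary and 13 for resting EpH4 (0, 0, 0 and 1 as reported). Shifting arrays to a common median gave 24 and 85 genes in the 4 and 3 lines, with 1 chain in the 3 lines. In the 4 lines an offset of 1 gave 1 gene and an offset of 32 gave 6. In the 3 lines 0 genes passed with no filter, 0 without the intensity trend and 0 with no replicate block, 21 with a filter at the 60th percentile and 8 with the mean of all probe sets of a gene. For resting EpH4 0 genes passed without the trend. The cause of these differences was not tested. Outside the normalization choices, 0 collagen chains passed in any comparison and alternative run, the block included.

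Leaving out 1 line gave 0 to 13 genes in the 4 lines, 12 to 63 in the 3 lines (27 without MCT, 63 without NMuMG), 0 to 35 for the kidney difference (17 without mProx, 35 without MCT) and 0 to 0 for resting EpH4. Of 174 refits of the 13 chains given in full, 170 kept the direction. Col16a1 was at -0.059 on the values as deposited, -0.0065 without mProx and -0.034 without NMuMG, and Col4a4 at -0.20 without MCT.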

Other observations

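The promoter table held 36 windows of 33 collagen chain genes. TGTCTG on either strand was in 7 of them (19.4%), against 14.3% of all 32851 windows, the GC box GGGCGG in 17 (47.2%), against 24.6%, and TGANTCA in 1 (2.78%), against 5.57%. The median GC content was 57.5% in the collagen windows and 51.5% in all, and whether the GC box count follows GC content was not tested.

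Of 42 chains 27 have more than 1 probe set, and 3 of the 40 further probe sets, those of Col1a1, Col18a1 and Col4a6, had the direction of the probe set used in all 4 lines.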
